A study of Homo sapiens with 24 samples.

Results

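Genes that carry out mitosis and guard it through the spindle checkpoint were followed in LNCaP, a cell line of human prostate cancer, after cells had been given 1 of 3 microRNAs or a scramble control. The 50 genes form a list made for this description. A probe set counted for a gene when the platform annotation gave it that gene alone, and the probe set with the highest mean over the 24 arrays stood for the gene. All 50 genes had such a probe set, among 11963 genes on the array that did. A filter on low signal kept 49 of them and 6782 genes in all. KIF15, a spindle kinesin, was the member left out, with a mean of 2.80 against a limit of 2.85 on the log2 scale. The lowest members that passed were CENPA at 2.96 and MKI67 at 3.24.

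Cells were nucleofected, a form of electroporation, with 2.5 µg of plasmid carrying miR-205, miR-203, miR-130a or a scramble, and the labels give no level that the microRNAs reached. From each transfection came total RNA and RNA that had been precipitated with an antibody against AGO2, the Argonaute protein that holds microRNAs on their targets. The 8 groups had 3 arrays each, which the labels call biological replicates without naming separate cultures, so a p-value here measures only how far these arrays differ. Each Affymetrix array received 2 µg of RNA.

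Mitosis is driven by cyclin B bound to the kinase CDK1. The CDC25 phosphatases, PLK1 and the Aurora kinases switch this complex on and build the spindle. The spindle checkpoint (BUB1, BUB1B, BUB3, MAD2L1, TTK) holds back CDC20 until every kinetochore is attached. CDC20 and the ubiquitin enzyme UBE2C then direct the anaphase-promoting complex to cyclin B and to securin (PTTG1), which frees separase (ESPL1). Transcripts of most of these genes are made in G2 and mitosis, so that their level in a culture follows the share of dividing cells. Many of their promoters hold a CCAAT box, the site of NF-Y, and a cell cycle genes homology region (CHR), the site of the MuvB complexes.

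The mature microRNAs found by name in RefSeq (GRCh38.p14) are printed because they are the agents compared, with the seed, bases 2 to 8, in capitals. The labels name no arm. The mature product miR-130a-3p is named only. miR-205-5p lies at chr1:209432166-209432187 and miR-203a-3p at chr14:104117469-104117490, both on the plus strand, and their seeds are not the same.
hsa-miR-205-5p: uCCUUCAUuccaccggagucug
hsa-miR-203a-3p: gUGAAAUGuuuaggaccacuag

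Promoters are shown for 4 members. They were picked from a few named genes because their windows held both a CCAAT box and a CHR, so they do not represent the list. CCNB1 was among the genes considered and held no TTTGAA. Each is a RefSeq window (GRCh38.p14) from 250 bases before to 50 bases after the transcription start, read in the sense of the gene, with TTTGAA (CHR) and CCAAT in capitals on either strand. CCNB2 lies at chr15:59104896-59105195, CDC20 at chr1:43358731-43359030, PLK1 at chr16:23678639-23678938 and CDK1 at chr10:60778081-60778380, all on the plus strand.
CCNB2: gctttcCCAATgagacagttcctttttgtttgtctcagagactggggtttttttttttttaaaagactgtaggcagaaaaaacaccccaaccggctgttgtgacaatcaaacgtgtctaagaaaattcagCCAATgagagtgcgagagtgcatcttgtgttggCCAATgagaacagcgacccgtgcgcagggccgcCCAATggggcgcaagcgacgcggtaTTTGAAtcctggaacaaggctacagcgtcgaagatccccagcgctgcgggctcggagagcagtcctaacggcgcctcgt
CDC20: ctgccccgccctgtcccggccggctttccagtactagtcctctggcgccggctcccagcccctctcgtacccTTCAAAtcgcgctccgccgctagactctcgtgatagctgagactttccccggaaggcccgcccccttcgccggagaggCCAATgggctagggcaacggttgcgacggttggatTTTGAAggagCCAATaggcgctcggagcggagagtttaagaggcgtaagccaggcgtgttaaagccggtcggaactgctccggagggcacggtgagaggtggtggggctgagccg
PLK1: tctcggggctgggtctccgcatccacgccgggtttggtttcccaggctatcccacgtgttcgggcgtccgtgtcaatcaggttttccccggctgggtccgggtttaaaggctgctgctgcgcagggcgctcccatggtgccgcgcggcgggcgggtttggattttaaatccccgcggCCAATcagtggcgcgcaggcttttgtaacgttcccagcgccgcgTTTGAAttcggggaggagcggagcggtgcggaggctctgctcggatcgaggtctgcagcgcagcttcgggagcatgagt
CDK1: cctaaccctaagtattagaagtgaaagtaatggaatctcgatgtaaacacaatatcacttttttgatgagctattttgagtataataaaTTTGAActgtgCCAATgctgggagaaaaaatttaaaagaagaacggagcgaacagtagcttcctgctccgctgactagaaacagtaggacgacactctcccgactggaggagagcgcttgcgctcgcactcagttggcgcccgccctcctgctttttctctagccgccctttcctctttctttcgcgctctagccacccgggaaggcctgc
CCNB2 held 4 CCAAT boxes and 1 CHR, CDC20 held 2 of each, and PLK1 and CDK1 held 1 of each. In CDC20, 1 of the CHR matches was on the minus strand. Of the 41 members with a window in the table, 28 (68.3%) held TTTGAA, 32 (78.0%) held CCAAT and 23 (56.1%) held both, on either strand. Over all 27305 genes of the table the shares were 18.2%, 39.7% and 8.37%. A gene with several windows was counted over all of them, so its 2 motifs may lie in different windows. In the first window of each gene, 22 of 41 members (53.7%) held both, beside 6.08% of all genes. No 2 matches overlapped in the 4 windows shown, and a match of letters is a description of the window and not a measured site.

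Levels are given as log2 values on the arrays numbered 1, 2 and 3 of a group, and each difference is one of log2 means with its standard error (SE). The luminal markers of the prostate were present. KLK3, the prostate specific antigen, lay between 10.4 and 13.6 on the log2 scale, and of 11 markers of basal, mesenchymal, endothelial and blood cells 6 were at the floor on 24 of 24 arrays (KRT5, COL1A2, DCN, PECAM1, PTPRC and CD3D). KRT14, HBB and VWF were at the floor on 22, 20 and 14 arrays and reached 2.68 at most. The mesenchymal genes COL1A1 and VIM were above it, at 3.06 to 4.53 and 2.39 to 3.83, on 24 and 23 arrays. The floor, an array's lowest value, differed between 3 sets of arrays: 12 of scramble or miR-205, 6 of miR-203 and 6 of miR-130a. In every comparison of miR-130a or miR-203 with scramble, with miR-205 or with each other, the set and the transfection cannot be told apart. No group of any member lay at the floor on all its arrays. Total scramble replicate 1 had the highest 3 prime over 5 prime difference of GAPDH among the 12 total arrays, 0.99 against 0.63 to 0.82 on the others. The probe sets of PTTG1, FOXM1 and CENPA are of a class that can bind related sequences, so these 3 genes are less certain. In these bulk samples, fewer cells in mitosis and less transcript per cell cannot be told apart.

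Total RNA after miR-205 held less of nearly every mitotic transcript than total RNA after scramble. Of 49 genes tested with limma, 47 fell and 0 rose at an adjusted p (Benjamini-Hochberg over 6782 genes) under 0.05. Over all 6782 genes, 13.3% fell and 10.1% rose. The median log2 difference of the 49 genes was -1.31, against -0.0079 over all genes, and 37 of the 47 fell at least 2-fold. All 3 miR-205 arrays lay below all 3 scramble arrays for 47 genes, beside 20.1% of all genes. The genes that did not pass were BUB3, a checkpoint scaffold (-0.39 ± 0.15 SE), and CENPA, the histone H3 of centromeres (-0.10 ± 0.11 SE).

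After miR-203 the same contrast was smaller, with 28 of 49 genes lower and 0 higher, beside 19.8% lower and 19.8% higher over all genes. The median was -0.56, against 0.01 over all genes, and 4 genes fell at least 2-fold. After miR-130a, 25 of 49 genes rose and 0 fell, beside 15.9% higher and 13.3% lower over all genes, with a median of 0.58 against 0.01 over all genes. The 3 comparisons share the scramble arrays. Without total scramble replicate 1 they gave 45 lower after miR-205, 19 lower after miR-203 and 20 higher after miR-130a. The miR-130a count was 15 without miR-130a replicate 1, without miR-130a replicate 2 or without scramble replicate 3, and 13 of its 25 calls held with every array left out in turn.

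**Figure D1:**
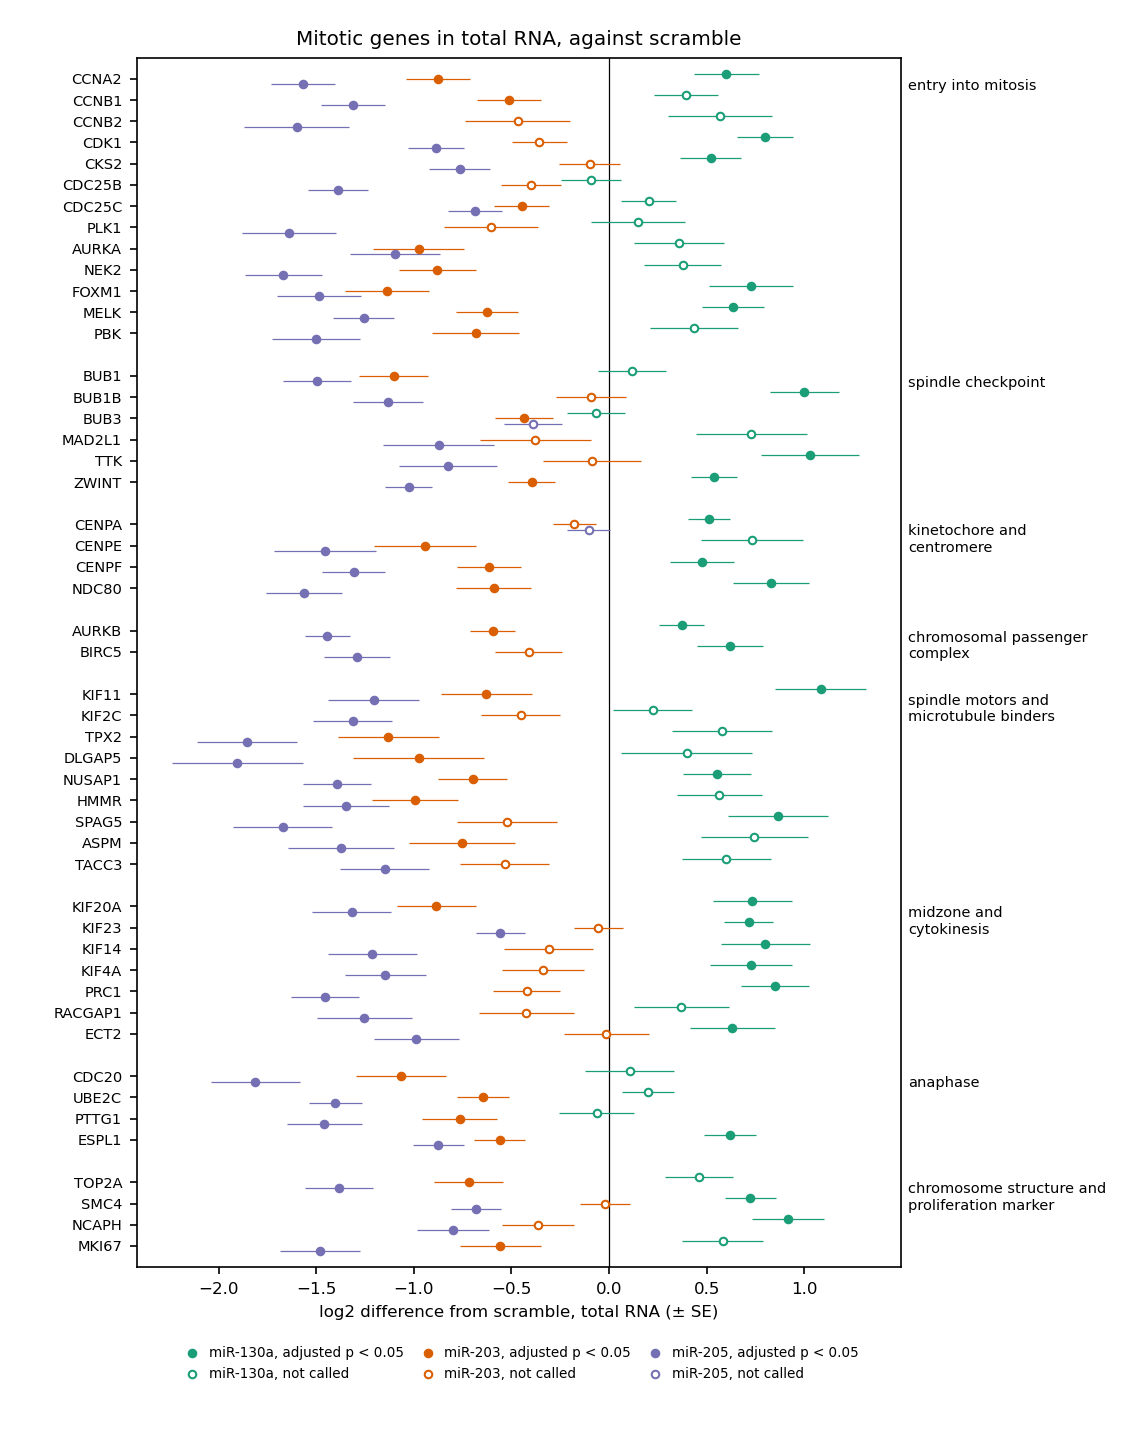
Log2 difference from scramble in total RNA for the 49 tested genes, grouped by role, as points with bars of ± SE (3 arrays against 3). Filled points passed an adjusted p of 0.05 in limma; all points after miR-205 and miR-203 lie below 0, and 46 of 49 after miR-130a lie above 0.

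Set against each other, total RNA levels after the 3 microRNAs and scramble had a graded order. The 3 microRNAs lay in 3 different sets of arrays by their floor, so set and transfection cannot be told apart in these contrasts. The group means ran miR-130a, scramble, miR-203, miR-205 from high to low for 45 of 49 genes. How many of all genes had this order was not counted, so the 45 have no background. The exceptions were BUB3, CENPA, CDC25B and PTTG1. For 29 genes all 3 miR-205 arrays lay below the 9 other total arrays, beside 7.96% of all genes. Levels after miR-130a were higher than after miR-205 for 48 genes, beside 21.9% over all genes, with a median of 1.84. They were higher than after miR-203 for 47 genes, beside 23.8%, with a median of 1.12. Levels after miR-203 were higher than after miR-205 for 35 genes, beside 23.2%, with a median of 0.695. No member was called lower in any of these 3 contrasts, beside 16.9%, 21.4% and 18.6% of all genes in the order given.

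Of the genes that bring cells into mitosis, 13 of 13 fell in total RNA after miR-205 (median -1.39), 8 fell after miR-203 and 5 rose after miR-130a. Among the 8, the cyclin CCNA2 differed by -0.88 on the probe set used and by -0.17 on its other one. The AURKA probe set next in level differed by -0.80 there, near the -0.98 of the one used. These other probe sets were not tested alone. CDK1, the kinase itself, stood at 9.27, 9.25 and 9.09 after scramble, at 10.03, 9.97 and 10.01 after miR-130a, at 8.51, 9.03 and 8.996 after miR-203 and at 8.09, 8.33 and 8.53 after miR-205. The miR-205 arrays lay below and the miR-130a arrays above all scramble arrays, and miR-203 and miR-205 overlapped each other. CDK1 changed by -0.89 ± 0.14 (SE) after miR-205 (adjusted p = 0.000711) and by 0.80 ± 0.14 after miR-130a (adjusted p = 0.00138); after miR-203 the difference of -0.36 ± 0.14 did not pass. CCNB1, the cyclin B1 that activates it, stood at 7.69, 8.04 and 7.57 after scramble, at 8.26, 8.10 and 8.13 after miR-130a, at 6.89, 7.53 and 7.34 after miR-203 and at 6.24, 6.51 and 6.61 after miR-205. It fell by 1.31 ± 0.16 on the log2 scale after miR-205, with all 3 arrays below the 9 others. Its miR-203 difference of -0.51 lost its call without miR-203 replicate 1 or scramble replicate 2 (adjusted p 0.0995 and 0.102), and its miR-130a difference of 0.40 ± 0.16 did not pass.

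PLK1, the kinase of mitotic entry and centrosome maturation, stood at 4.67, 4.70 and 4.37 after scramble, at 4.84, 4.57 and 4.78 after miR-130a, at 3.87, 4.15 and 3.91 after miR-203 and at 2.51, 3.69 and 2.62 after miR-205. Its miR-205 arrays ranged from 2.51, close to the floor, to 3.69, all below the 9 others, and the difference from scramble was -1.64 ± 0.24 (adjusted p = 0.000408). AURKA, the Aurora kinase of the spindle poles, stood at 5.98, 5.61 and 5.32 after scramble, at 6.06, 5.89 and 6.03 after miR-130a, at 4.05, 5.06 and 4.88 after miR-203 and at 4.34, 4.77 and 4.52 after miR-205. All miR-203 and miR-205 arrays of AURKA lay below the scramble arrays, with differences of -0.98 ± 0.23 and -1.10 ± 0.23, and the 2 groups overlapped each other; the miR-130a arrays overlapped scramble. FOXM1, a transcription factor of G2 genes, stood at 5.20, 5.09 and 4.44 after scramble, at 5.58, 5.63 and 5.70 after miR-130a, at 3.44, 4.10 and 3.77 after miR-203 and at 3.04, 3.63 and 3.60 after miR-205. It had the largest fall of the 49 genes after miR-203, -1.14 ± 0.21 (adjusted p = 0.00135), and fell by 1.49 ± 0.21 after miR-205. Its rise after miR-130a (0.73 ± 0.21) lost its call in 4 of 6 fits with an array left out (adjusted p 0.0514 to 0.0948).

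Of the checkpoint genes, with the kinetochore protein ZWINT counted among them, 5 of 6 fell after miR-205 and 3 of 6 after miR-203, while 3 of 6 rose after miR-130a. BUB1B, the BubR1 protein that binds CDC20, stood at 6.80, 6.48 and 6.11 after scramble, at 7.46, 7.49 and 7.45 after miR-130a, at 6.17, 6.62 and 6.32 after miR-203 and at 5.000, 5.54 and 5.46 after miR-205. It was among the 3 largest rises after miR-130a (1.001 ± 0.18, adjusted p = 0.00148) and fell by 1.13 ± 0.18 after miR-205, and after miR-203 its difference was -0.09 ± 0.18 with overlapping arrays. BUB1, a kinase at kinetochores, stood at 4.74, 4.93 and 4.69 after scramble, at 4.81, 4.85 and 5.06 after miR-130a, at 3.23, 3.76 and 4.06 after miR-203 and at 3.07, 3.37 and 3.43 after miR-205. It fell by 1.10 ± 0.17 after miR-203 and fell by 1.497 ± 0.17 after miR-205, and the miR-130a difference of 0.12 ± 0.17 did not pass. MAD2L1, which with BUB1B holds CDC20 inactive, stood at 7.72, 8.02 and 7.54 after scramble, at 8.16, 8.50 and 8.81 after miR-130a, at 6.67, 7.76 and 7.72 after miR-203 and at 6.43, 7.06 and 7.17 after miR-205. Its fall after miR-205 (-0.87 ± 0.28, adjusted p = 0.0427) kept its call only when miR-205 replicate 3 was the array left out, with an adjusted p of 0.0571 to 0.167 for the other 5 arrays. TTK, the Mps1 kinase that starts checkpoint signalling, stood at 4.38, 4.44 and 3.54 after scramble, at 4.84, 5.17 and 5.44 after miR-130a, at 3.54, 4.44 and 4.13 after miR-203 and at 3.27, 3.31 and 3.31 after miR-205. It rose after miR-130a by 1.03 ± 0.25 (adjusted p = 0.00953), and its fall after miR-205 (-0.82 ± 0.25) kept its call only without scramble replicate 3 (adjusted p 0.0695 to 0.121 for the other 5 arrays).

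At kinetochores and in the chromosomal passenger complex the same directions were seen. NDC80, a microtubule anchor, fell by 1.56 ± 0.19 after miR-205 and rose by 0.83 ± 0.19 after miR-130a. CENPA was called in neither the miR-203 nor the miR-205 contrast and rose by 0.51 ± 0.11 after miR-130a; its arrays lay between 2.59 and 3.497 in total RNA, near the floor. AURKB, the kinase of the passenger complex, stood at 4.81, 5.11 and 4.69 after scramble, at 5.31, 5.21 and 5.20 after miR-130a, at 4.27, 4.25 and 4.29 after miR-203 and at 3.29, 3.37 and 3.62 after miR-205. The 4 groups of AURKB did not overlap, and it fell by 1.44 ± 0.11 after miR-205 and fell by 0.60 ± 0.11 after miR-203. Its miR-130a difference of 0.37 ± 0.11 lost its call in 5 of 6 fits with an array left out (adjusted p 0.0577 to 0.114). BIRC5, the survivin subunit of the complex, stood at 6.59, 6.53 and 6.17 after scramble, at 7.04, 6.96 and 7.16 after miR-130a, at 5.72, 6.30 and 6.04 after miR-203 and at 4.86, 5.44 and 5.13 after miR-205. It fell by 1.29 ± 0.17 after miR-205, with all 3 arrays below the 9 others.

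All 9 spindle motors and microtubule binders fell after miR-205 and 6 of 9 after miR-203, while 3 of 9 rose after miR-130a. DLGAP5, a spindle stabiliser, stood at 5.98, 5.93 and 5.72 after scramble, at 6.11, 6.35 and 6.37 after miR-130a, at 3.92, 5.26 and 5.52 after miR-203 and at 3.51, 4.47 and 3.93 after miR-205. It had the largest fall of the list after miR-205, -1.91 ± 0.34 (adjusted p = 0.00134), and its miR-203 arrays were spread over more than 1 log2 unit. TPX2, which activates AURKA on the spindle, stood at 6.43, 6.59 and 6.22 after scramble, at 7.16, 6.88 and 6.94 after miR-130a, at 5.12, 5.62 and 5.11 after miR-203 and at 3.83, 5.12 and 4.73 after miR-205. Its differences of -1.86 ± 0.26 after miR-205 and -1.13 ± 0.26 after miR-203 were each the second largest fall of the list. KIF11, the kinesin that pushes spindle poles apart, stood at 4.52, 3.79 and 3.95 after scramble, at 5.20, 5.17 and 5.13 after miR-130a, at 3.09, 3.88 and 3.40 after miR-203 and at 2.46, 2.93 and 3.25 after miR-205. It had the largest rise of the list after miR-130a, 1.08 ± 0.23 (adjusted p = 0.00449), and fell by 1.20 ± 0.23 after miR-205.

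Of the genes of the midzone and cytokinesis, 6 of 7 rose after miR-130a, 7 of 7 fell after miR-205 and 1 of 7, KIF20A, fell after miR-203. KIF20A, a kinesin of the midzone, stood at 5.46, 5.61 and 5.26 after scramble, at 6.22, 6.27 and 6.05 after miR-130a, at 4.09, 4.96 and 4.63 after miR-203 and at 3.77, 4.39 and 4.22 after miR-205. It fell by 1.32 ± 0.20 after miR-205 and fell by 0.89 ± 0.20 after miR-203. PRC1, the midzone bundler, rose by 0.85 ± 0.17 after miR-130a and fell by 1.45 ± 0.17 after miR-205. KIF23 had the smallest fall of this group after miR-205, -0.56 ± 0.13.

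Of the anaphase genes, 4 of 4 fell after miR-205 and 4 of 4 after miR-203, and ESPL1 alone rose after miR-130a (0.62 ± 0.13). The miR-203 fall of ESPL1 rests on the probe set used (-0.56). A second ESPL1 probe set, not tested alone, differed by -0.04 there. CDC20, UBE2C and PTTG1 had 1 probe set each. CDC20, the activator of the anaphase-promoting complex, stood at 6.93, 6.81 and 6.82 after scramble, at 7.002, 7.04 and 6.83 after miR-130a, at 5.55, 6.05 and 5.75 after miR-203 and at 4.37, 5.56 and 5.19 after miR-205. It fell by 1.81 ± 0.23 after miR-205 (adjusted p = 0.000144) and fell by 1.07 ± 0.23 after miR-203, while miR-130a and scramble arrays overlapped. PTTG1, securin, stood at 8.05, 8.23 and 7.80 after scramble, at 7.92, 8.06 and 7.91 after miR-130a, at 6.93, 7.51 and 7.35 after miR-203 and at 6.13, 6.91 and 6.67 after miR-205. It fell by 1.46 ± 0.19 after miR-205 and fell by 0.76 ± 0.19 after miR-203, and its miR-130a arrays lay within the scramble range.

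Of the chromosome structure genes, with the proliferation marker MKI67, 4 of 4 fell after miR-205. TOP2A, the topoisomerase that untangles sister chromatids, stood at 7.40, 7.38 and 7.15 after scramble, at 7.77, 7.63 and 7.91 after miR-130a, at 6.20, 6.77 and 6.80 after miR-203 and at 5.58, 6.16 and 6.04 after miR-205. It fell by 1.38 ± 0.17 after miR-205 and fell by 0.72 ± 0.17 after miR-203, and the 4 groups did not overlap. MKI67 stood at 4.38, 4.30 and 4.19 after scramble, at 4.92, 5.004 and 4.69 after miR-130a, at 3.38, 4.28 and 3.54 after miR-203 and at 2.53, 3.13 and 2.76 after miR-205. Its miR-205 arrays were close to the floor, which bounds its difference of -1.48 ± 0.21 there, and its miR-203 difference of -0.56 lost its call in 5 of 6 fits with an array left out (adjusted p 0.0721 to 0.181).

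In AGO2-bound RNA the replicate number marked the level of these genes. The array numbered 1 was the highest of its group for 48 of 49 genes after scramble, 45 after miR-203, 45 after miR-205 and 37 after miR-130a. Its median deviation from the group mean over the 49 genes was 0.40 after scramble, 0.62 after miR-203, 0.59 after miR-205 and 0.21 after miR-130a, while the same median over all 6782 genes was between -0.0037 and 0.01. A median over all genes lies near 0 on arrays scaled alike. How many of all genes were highest on number 1 was not counted, so the effect is not shown to be particular to this list. The poly(A) spike controls went the other way from the 49 genes. Their mean log2 signal was 5.59, 5.90 and 6.33 on scramble arrays 1, 2 and 3, 4.83, 5.50 and 7.02 after miR-205, 5.44, 5.63 and 6.09 after miR-203 and 5.27, 5.62 and 6.43 after miR-130a, against 3.75 to 4.07 in total RNA. Number 1 thus had the lowest spike signal in each of the 4 AGO2-bound groups; its part in the results was not tested. In total RNA number 1 was not marked in the same way. Its median deviation was -0.35 after miR-203, -0.30 after miR-205, 0.0005 after miR-130a and 0.08 after scramble.

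**Figure D2:**
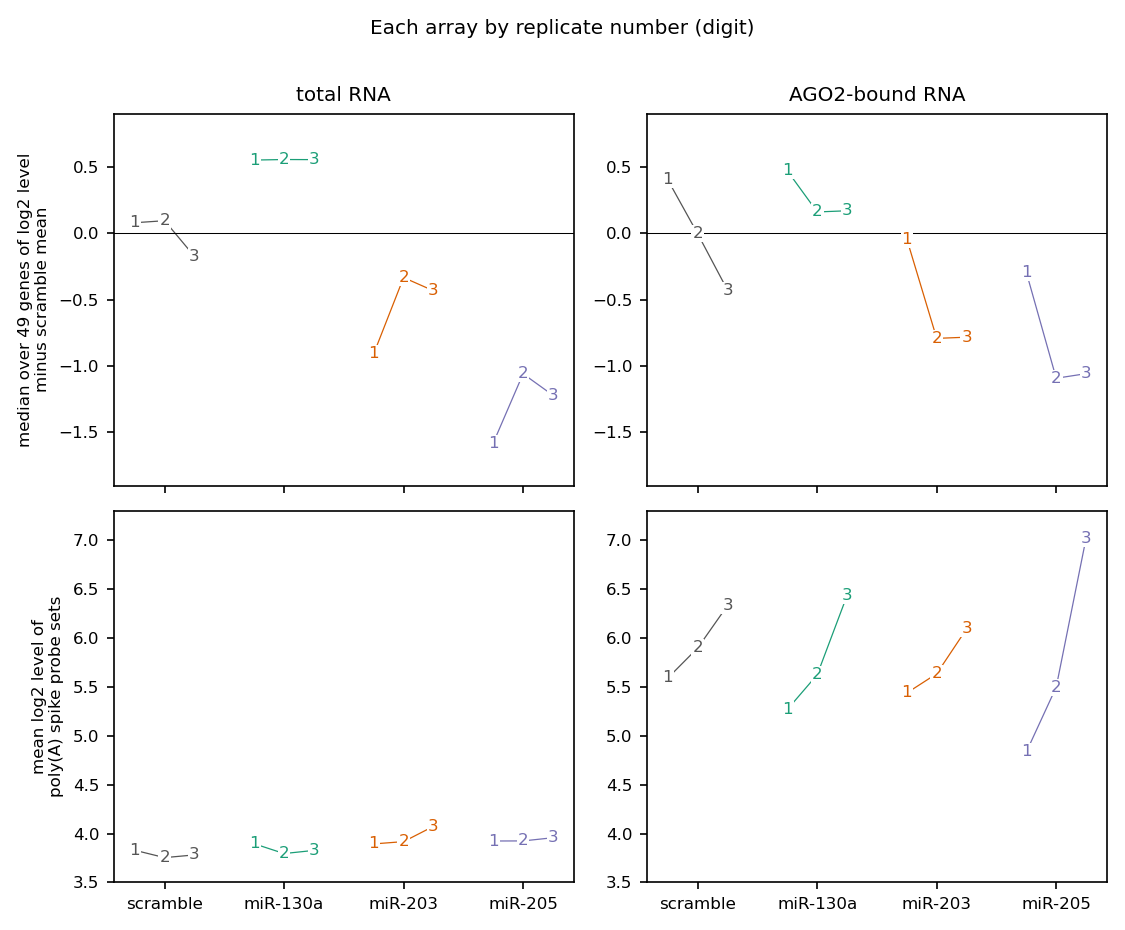
Top, the median over the 49 genes of each array's log2 level minus the scramble mean of the same kind of RNA; bottom, the mean log2 signal of the poly(A) spike probe sets. Digits are replicate numbers: in AGO2-bound RNA number 1 is the highest of each group at the top and the lowest at the bottom.

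Arrays of the same number in miR-130a or miR-203 and in scramble deviated together over all genes in AGO2-bound RNA, with correlations of 0.11 to 0.52 and of 0.16 to 0.58. These numbers were therefore also used as a block for those 2 comparisons. Against the scramble array of the same number, the median difference over the 49 genes was -0.88, -1.20 and -0.65 after miR-205 for numbers 1, 2 and 3. It was -0.49, -0.84 and -0.34 after miR-203 and 0.08, 0.16 and 0.55 after miR-130a. The sign was thus the same within each number. Genes lower within all 3 numbers were 43 of 49 after miR-205 (38.3% of all genes), 33 after miR-203 (43.7%) and 8 after miR-130a (39.3%), where 21 were higher within all 3 (33.1%).

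AGO2-bound RNA after miR-205 held less of 27 of 49 mitotic genes than after scramble and more of 0, beside 23.7% lower and 20.4% higher over all genes. The median was -0.84, against -0.06 over all genes, and 19 of the 27 fell at least 2-fold. All 27 were among the 47 of 49 genes that fell in total RNA, an overlap that those 47 made nearly certain. After miR-203, 16 fell and 1 rose, beside 28.8% lower and 22.7% higher over all genes, so that the share of the list (32.7% lower) was near the background; the median was -0.52 against -0.09. With the replicate number as a block 29 fell and 1 rose, beside 34.9% lower and 26.6% higher over all genes in that fit. With only the arrays numbered 2 and 3, an alternative added after the number was seen to stand apart, 26 fell and 1 rose, beside 23.3% and 19.3%. After miR-130a, 11 rose and 2 fell, beside 18.6% higher and 19.9% lower, with a median of 0.27 against -0.05. With the block 18 rose and 4 fell, beside 22.9% higher and 26.0% lower, and with only numbers 2 and 3, 17 rose and 3 fell, beside 15.3% and 14.7%. For miR-205, numbers 2 and 3 alone gave 32 lower and 1 higher, beside 19.1% and 17.7%.

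Single arrays moved these counts. After miR-203 the genes lower were 28 without miR-203 replicate 1 and 9 without scramble replicate 1. After miR-205 they were 17 without miR-205 replicate 2, and after miR-130a the genes higher were 7 without scramble replicate 3. Calls that held with every array left out in turn were 17 of 27 after miR-205, 10 of 17 after miR-203 and 9 of 13 after miR-130a. The 3 prime over 5 prime difference of GAPDH was 0.60 to 0.89 on AGO2-bound arrays of miR-203, 1.20 to 1.30 of miR-130a, 1.38 to 1.72 of miR-205 and 1.23 to 1.57 of scramble; its part was not tested.

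CDK1 in AGO2-bound RNA stood at 9.59, 9.17 and 8.45 after scramble, at 11.19, 11.83 and 10.88 after miR-130a, at 9.78, 8.63 and 8.56 after miR-203 and at 8.16, 6.83 and 7.28 after miR-205. The miR-130a arrays were above and the miR-205 arrays below all scramble arrays, at differences of 2.23 ± 0.40 (adjusted p = 0.000519) and -1.65 ± 0.40 (adjusted p = 0.00404). CCNB1 stood at 8.16, 7.18 and 6.48 after scramble, at 10.59, 10.17 and 9.64 after miR-130a, at 7.23, 5.99 and 5.92 after miR-203 and at 7.67, 6.60 and 6.50 after miR-205. It rose after miR-130a by 2.86 ± 0.44 (adjusted p = 0.000167), the largest rise of the list, and the miR-203 and miR-205 arrays overlapped scramble. With the number as a block its miR-203 difference of -0.89 passed (adjusted p = 0.000259). CCNB2, the cyclin B2 partner of CDK1, stood at 8.88, 8.60 and 7.59 after scramble, at 7.13, 6.58 and 6.25 after miR-130a, at 6.004, 5.05 and 5.08 after miR-203 and at 6.58, 5.55 and 5.41 after miR-205. It was lower than scramble with all 3 microRNAs and no overlap, at -2.98 ± 0.38 after miR-203, -2.51 ± 0.38 after miR-205 and -1.71 ± 0.38 after miR-130a (adjusted p = 2.2e-05, 0.000104 and 0.00276). The 2 B-type cyclins thus went opposite ways after miR-130a.

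KIF20A in AGO2-bound RNA stood at 8.71, 8.57 and 8.08 after scramble, at 6.60, 6.53 and 6.20 after miR-130a, at 7.57, 6.83 and 6.81 after miR-203 and at 5.36, 4.39 and 4.50 after miR-205. All 9 microRNA arrays lay below the scramble arrays. The fall after miR-205, -3.71 ± 0.27, was the largest of the list (adjusted p = 9.7e-08), with -2.01 ± 0.27 after miR-130a and -1.39 ± 0.27 after miR-203. KIF20A was the 1 member called in opposite directions in the 2 kinds of RNA of a transfection, higher in total and lower in AGO2-bound RNA after miR-130a. That rise in total RNA lost its call in 3 of 6 fits with an array left out (adjusted p 0.0517 to 0.0677). KIF11 stood at 3.63, 2.997 and 3.10 after scramble, at 4.998, 5.22 and 4.53 after miR-130a, at 3.28, 2.86 and 2.76 after miR-203 and at 3.22, 2.54 and 2.82 after miR-205, and rose after miR-130a by 1.67 ± 0.23 (adjusted p = 6.3e-05). SMC4, a condensin subunit, stood at 6.05, 5.31 and 5.35 after scramble, at 6.22, 6.11 and 6.21 after miR-130a, at 7.46, 6.65 and 6.80 after miR-203 and at 5.29, 4.59 and 4.88 after miR-205. It was the 1 member that rose after miR-203, by 1.40 ± 0.24 (adjusted p = 0.000306), with no overlap; with the number as a block its miR-130a difference of 0.61 passed too (adjusted p = 0.00327).

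**Figure D3:**
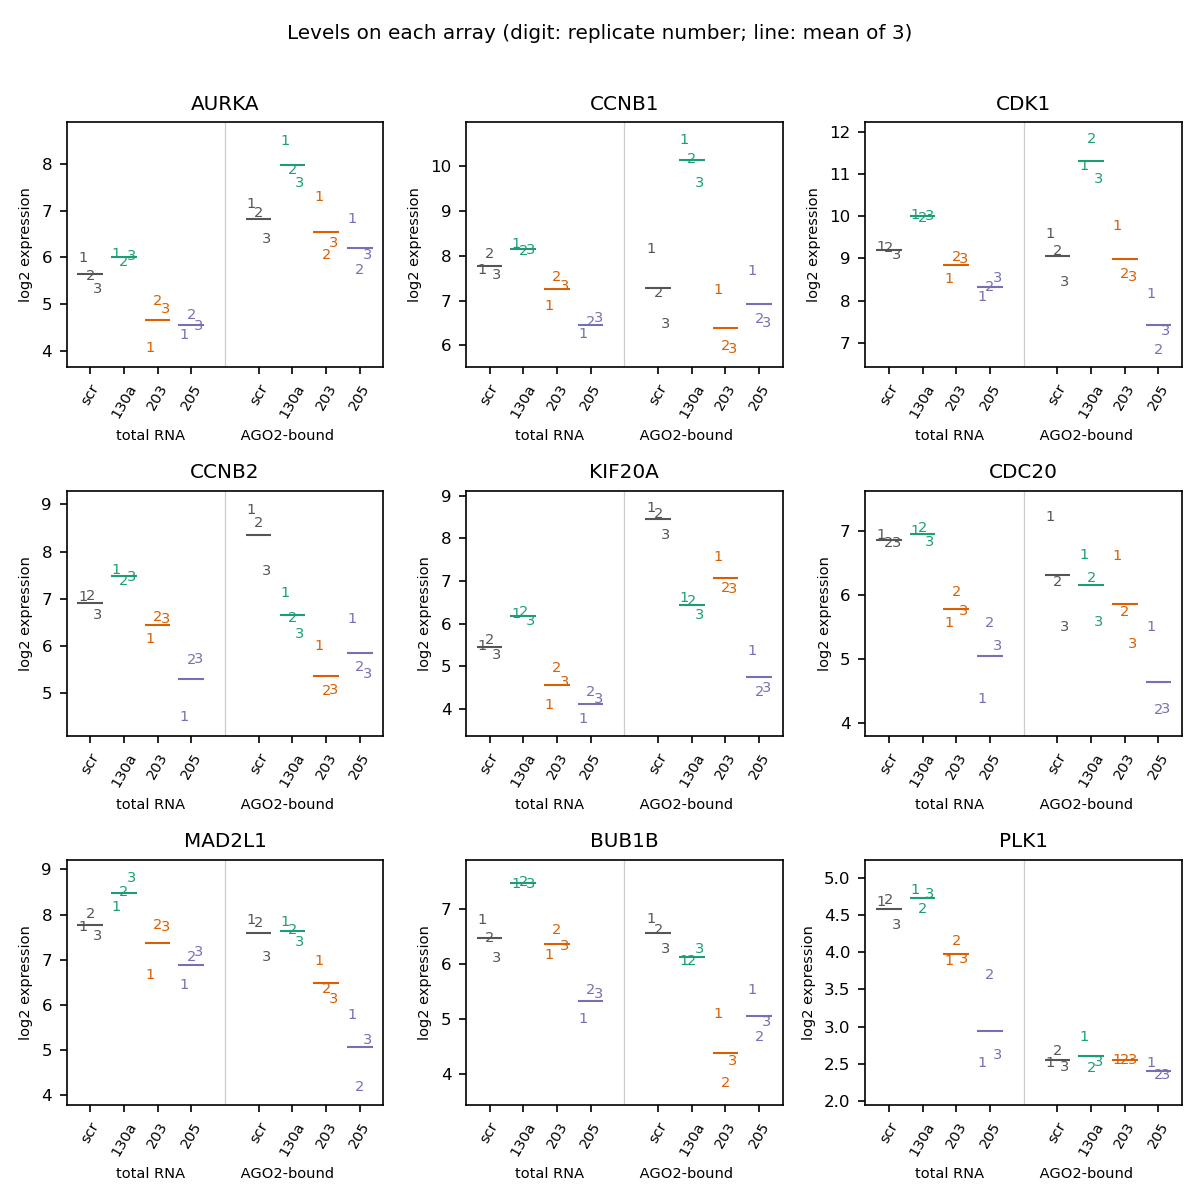
Log2 level on each array (digit, the replicate number) and group mean (line) for 9 genes in total RNA (left of each panel) and AGO2-bound RNA (right) after each transfection (scr, scramble). In AGO2-bound RNA CCNB1 and CDK1 are highest after miR-130a, CCNB2 and KIF20A are highest after scramble, and PLK1 stays between 2.35 and 2.86.

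MAD2L1 in AGO2-bound RNA stood at 7.89, 7.82 and 7.05 after scramble, at 7.85, 7.66 and 7.40 after miR-130a, at 6.98, 6.36 and 6.14 after miR-203 and at 5.78, 4.19 and 5.23 after miR-205. It fell by 2.52 ± 0.35 after miR-205 (adjusted p = 4.6e-05), and its miR-203 difference of -1.09 lost its call in 4 of 6 fits with an array left out (adjusted p 0.0585 to 0.0661). BUB1B stood at 6.82, 6.62 and 6.27 after scramble, at 6.06, 6.06 and 6.27 after miR-130a, at 5.09, 3.84 and 4.25 after miR-203 and at 5.52, 4.68 and 4.95 after miR-205. It fell by 2.18 ± 0.28 after miR-203 (adjusted p = 2.4e-05), where its total RNA arrays overlapped scramble, and fell by 1.52 ± 0.28 after miR-205. DLGAP5 stood at 5.92, 5.59 and 4.92 after scramble, at 5.36, 5.16 and 4.83 after miR-130a, at 3.73, 2.85 and 2.66 after miR-203 and at 4.27, 3.47 and 3.56 after miR-205. It fell by 2.39 ± 0.31 after miR-203 and fell by 1.71 ± 0.31 after miR-205, with no overlap in either. CDC20 stood at 7.22, 6.20 and 5.51 after scramble, at 6.62, 6.27 and 5.57 after miR-130a, at 6.60, 5.74 and 5.23 after miR-203 and at 5.50, 4.20 and 4.21 after miR-205. Its arrays numbered 1 lay above numbers 2 and 3 in all 4 groups, and it fell by 1.67 ± 0.46 after miR-205 (adjusted p = 0.00938). Its miR-203 difference of -0.45 did not pass without the number as a block and passed with it (adjusted p = 0.0289).

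AURKA in AGO2-bound RNA stood at 7.15, 6.96 and 6.40 after scramble, at 8.51, 7.88 and 7.59 after miR-130a, at 7.299, 6.04 and 6.31 after miR-203 and at 6.82, 5.74 and 6.06 after miR-205, highest after miR-130a, and that rise of 1.16 lost its call without miR-130a replicate 1 or scramble replicate 3 (adjusted p 0.0747 and 0.0792). AURKB stood at 6.73, 6.10 and 5.30 after scramble, at 6.37, 5.98 and 5.67 after miR-130a, at 5.96, 4.81 and 4.97 after miR-203 and at 6.15, 4.72 and 4.75 after miR-205, with overlap of all groups and no call; with the number as a block its miR-203 difference of -0.80 passed (adjusted p = 0.00222). PTTG1 stood at 7.45, 7.15 and 6.40 after scramble, at 6.53, 5.75 and 6.01 after miR-130a, at 6.65, 5.92 and 5.86 after miR-203 and at 5.64, 4.29 and 4.22 after miR-205. It fell by 2.28 ± 0.37 after miR-205 with no overlap, and its miR-130a and miR-203 differences of -0.90 and -0.86 did not pass without the number as a block and passed with it (adjusted p = 0.00116 and 0.00123). TOP2A stood at 7.10, 6.77 and 6.57 after scramble, at 6.45, 6.38 and 6.34 after miR-130a, at 6.13, 4.38 and 4.65 after miR-203 and at 5.28, 4.09 and 4.33 after miR-205. It fell by 1.76 ± 0.38 after miR-203 and fell by 2.25 ± 0.38 after miR-205. BIRC5 stood at 5.66, 5.32 and 4.91 after scramble, at 5.83, 5.49 and 5.59 after miR-130a, at 6.10, 4.98 and 4.81 after miR-203 and at 5.17, 3.98 and 3.95 after miR-205, and its miR-205 difference of -0.94 lost its call in 4 of 6 fits with an array left out (adjusted p 0.103 to 0.173). FOXM1 stood at 4.39, 4.29 and 3.63 after scramble, at 4.85, 4.15 and 4.36 after miR-130a, at 3.79, 2.94 and 3.17 after miR-203 and at 3.29, 3.09 and 2.94 after miR-205. It fell by 0.998 ± 0.25 after miR-205, and its miR-203 difference of -0.81 lost its call in 3 of 6 fits (adjusted p 0.062 to 0.0788). PLK1 stood at 2.51, 2.68 and 2.45 after scramble, at 2.86, 2.44 and 2.53 after miR-130a, at 2.55, 2.55 and 2.55 after miR-203 and at 2.51, 2.35 and 2.35 after miR-205 and MKI67 at 2.48, 2.45 and 2.48 after scramble, at 2.73, 2.71 and 2.86 after miR-130a, at 2.65, 2.63 and 2.44 after miR-203 and at 2.44, 2.42 and 2.45 after miR-205. Both were close to the floor in all 4 groups, so a further fall could not be seen in AGO2-bound RNA. With the number as a block the miR-130a difference of MKI67, 0.30, passed (adjusted p = 0.0447).

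AGO2-bound and total RNA of the same transfection were compared next, on values scaled so that the typical gene is alike in both, which makes each difference relative to other genes. After scramble 25 of 49 genes were lower and 9 higher in AGO2-bound RNA, beside 37.8% lower and 35.1% higher over all genes. After miR-130a 29 were lower and 9 higher (38.3% and 33.3% over all genes), after miR-203 28 and 7 (37.2% and 34.7%), and after miR-205 19 and 8 (36.1% and 36.6%). The median differences over the list were -0.63, -1.002, -0.78 and -0.29 in the order given. Centring each array on its median moved the median of all genes from -0.05 to -0.19 after scramble and from -0.0088 to -0.18 after miR-205, and the miR-205 counts to 23 lower and 4 higher.

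In all 4 transfections 5 genes were higher in AGO2-bound RNA, beside 17.1% of all genes: AURKA, AURKB, CCNA2, CDC25B and ESPL1. CCNA2, the cyclin A2 of S phase and G2, had the largest difference of the list each time. It stood at 5.44, 5.999 and 5.60 after scramble, at 6.35, 6.26 and 6.24 after miR-130a, at 4.57, 5.17 and 4.67 after miR-203 and at 3.97, 4.07 and 4.29 after miR-205 in total RNA. In AGO2-bound RNA it stood at 10.40, 9.45 and 8.65 after scramble, at 10.51, 10.03 and 9.69 after miR-130a, at 9.17, 7.95 and 8.15 after miR-203 and at 7.98, 6.59 and 7.17 after miR-205. No AGO2-bound array overlapped total RNA of its transfection, and the differences were 3.82 ± 0.35, 3.80 ± 0.35, 3.62 ± 0.35 and 3.14 ± 0.35 in the order of the levels given. CDC25B, a phosphatase that activates CDK1, was higher by 1.47 ± 0.22 after scramble and 2.13 ± 0.22 after miR-205. The AURKB and ESPL1 calls after miR-130a were each lost in 5 of 6 fits with an array left out, while AURKA, CCNA2 and CDC25B held in all 4 transfections.

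Lower in all 4 were 11 genes, beside 16.2% of all genes: TPX2, PLK1, NUSAP1, BIRC5, PTTG1, ZWINT, NDC80, ASPM, TACC3, SPAG5 and PBK. PLK1 was close to the floor in AGO2-bound RNA, and ASPM had a mean of only 3.45 over the 24 arrays, so the floor may bound their differences. With every array left out in turn, NUSAP1, ZWINT, TACC3 and SPAG5 held their calls in all 4, and each of the other 7 genes lost at least 1. TACC3, a spindle protein, was lower by 2.21 ± 0.22 after scramble and was lower by 1.46 ± 0.22 after miR-205. ZWINT, a kinetochore protein, had differences of -1.18 ± 0.34 and -1.66 ± 0.34. CDC20, KIF23, CENPA and HMMR were called in none of the 4. KIF20A was higher in AGO2-bound RNA by 3.01 ± 0.25 after scramble and 2.51 ± 0.25 after miR-203, but by 0.27 ± 0.25 after miR-130a, where it did not pass. CCNB1, CCNB2, CDK1 and NEK2 were called higher in 1 transfection and lower in at least 1 other. The lower calls of CCNB1 after miR-203, CDK1 after miR-205 and CCNB2 after miR-130a were lost in 4, 2 and 5 of 6 fits with an array left out. CCNB1 was higher by 1.97 ± 0.36 after miR-130a, and CCNB2 was higher by 1.45 ± 0.35 after scramble and was lower by 1.07 after miR-203.

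**Figure D4:**
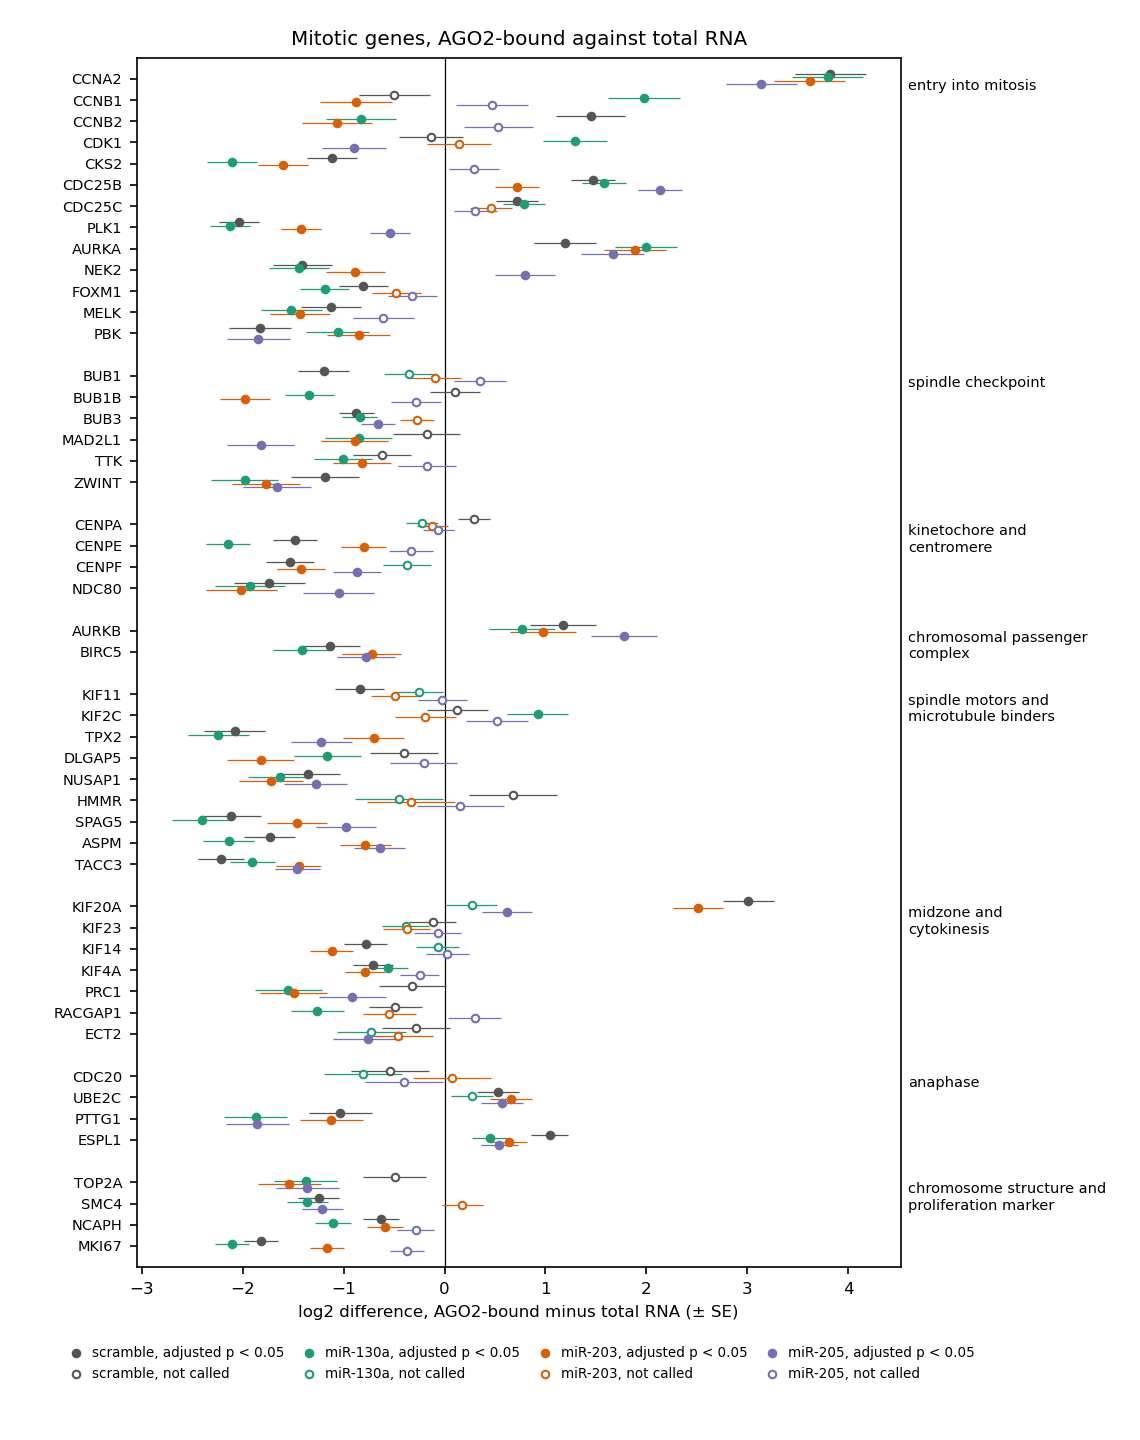
Log2 difference between AGO2-bound and total RNA of the same transfection for the 49 genes, as points with bars of ± SE; filled points passed an adjusted p of 0.05. CCNA2 lies above 3 in all 4 transfections, and KIF20A lies at 3.01 after scramble and 0.27 after miR-130a.

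The difference of the changes, AGO2-bound minus total RNA, each against scramble, passed for 11 genes after miR-205, 12 after miR-203 and 8 after miR-130a. Higher and lower were 3 and 5 after miR-130a (16.2% and 18.4% over all genes), 7 and 5 after miR-203 (22.1% and 27.0%) and 9 and 2 after miR-205 (21.1% and 21.7%). None of these shares of the list was above its background. With the number as a block the miR-130a count was 20, with 8 higher and 12 lower, beside 19.3% and 22.9% over all genes in that fit. That block also covered the total arrays, where same-numbered miR-130a and scramble arrays did not correlate (-0.06 to -0.02). Among the 12 genes added were PTTG1 (-0.84 ± 0.25, adjusted p = 0.0102), TOP2A (-0.88 ± 0.31, adjusted p = 0.0279), AURKA (0.80 ± 0.31, adjusted p = 0.0392) and BUB1 (0.85 ± 0.24, adjusted p = 0.00734). After miR-130a the value of CCNB1 was 2.47 ± 0.50 (adjusted p = 0.000414), that of CENPF, a kinetochore protein, was 1.16 ± 0.34, and those of KIF20A, CCNB2 and BUB1B were -2.74 ± 0.35, -2.27 ± 0.49 and -1.44 ± 0.35. Those 5 calls held with every array left out in turn. The CDK1 value of 1.43 ± 0.45 lost its call without AGO2 miR-130a replicate 2 or AGO2 scramble replicate 3 (adjusted p 0.0545 and 0.059).

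After miR-203 the calls that held with every array left out were SMC4 (1.42 ± 0.29), TPX2 (1.38 ± 0.43), CCNB2 (-2.51 ± 0.49) and BUB1B (-2.08 ± 0.35). TPX2 fell in total RNA after miR-203 while its AGO2-bound level differed from scramble by 0.25 ± 0.32. After miR-205, NEK2, a centrosome kinase, had the largest positive value, 2.21 ± 0.42 (adjusted p = 0.000129). NEK2 stood at 3.32, 4.15 and 4.24 in total and 5.18, 4.46 and 4.46 in AGO2-bound RNA after miR-205, against 5.69, 5.57 and 5.45 and 4.69, 4.06 and 3.74 after scramble. Its AGO2-bound arrays overlapped scramble while its total RNA arrays were all lower. BUB1 had a value of 1.55 ± 0.36 and CKS2, a CDK1 partner, of 1.41 ± 0.35. KIF20A and MAD2L1 fell more in AGO2-bound RNA, with differences of the changes of -2.39 and -1.64. For PLK1 (1.49) and MKI67 (1.45) the AGO2-bound levels lay near the floor in scramble too, and the total RNA differences were -1.64 and -1.48.

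**Figure D5:**
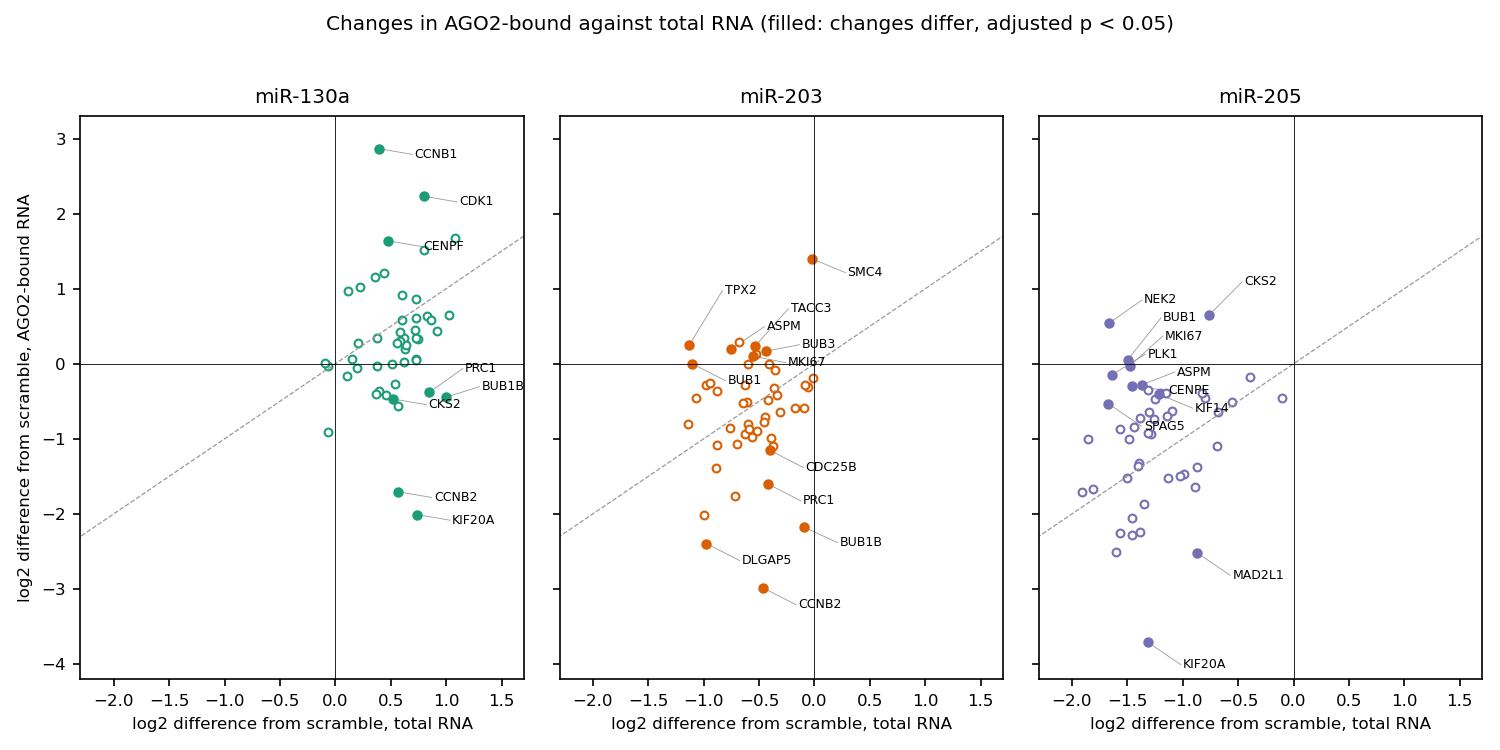
Log2 difference from scramble in AGO2-bound RNA (vertical) against that in total RNA (horizontal) for the 49 genes after each microRNA; the dashed line marks equal changes. Filled and named points are the 8, 12 and 11 genes whose changes differed; CCNB1 lies highest after miR-130a and KIF20A lowest after miR-205.

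Other mitosis genes outside the list had medians of the same signs in total RNA, nearer to 0. Of 80 such genes 62 were tested. After miR-205, 34 fell and 0 rose (median -0.44), with NCAPG, a condensin subunit, at -1.51 ± 0.16 SE and WEE1, the kinase that restrains CDK1, at -1.20 ± 0.12. After miR-203, 24 fell and 4 rose (median -0.29), and after miR-130a 27 rose and 2 fell (median 0.40), with PLK4, the kinase of centriole copying, at 1.25 ± 0.14. In AGO2-bound RNA 29 fell and 6 rose after miR-205, 27 fell and 10 rose after miR-203 and 11 rose and 4 fell after miR-130a. Of 36 DNA replication genes tested, 29 fell and 0 rose in total RNA after miR-205 (median -0.90), with MCM5, a subunit of the replicative helicase, at -1.78 ± 0.17. After miR-203, 23 fell and 1 rose, and after miR-130a 17 rose and 1 fell. In AGO2-bound RNA 18 fell and 4 rose after miR-205, 14 fell and 4 rose after miR-203 and 6 rose and 5 fell after miR-130a. The shares lower in AGO2-bound RNA after miR-205, 46.8% of the other mitosis genes and 18 of 36 replication genes, stood beside 23.7% of all genes, and after miR-203 they were 43.5% and 38.9% beside 28.8%. The shares higher after miR-130a, 17.7% and 16.7%, were near the 18.6% of all genes. In total RNA the shares lower were 54.8% and 80.6% after miR-205 beside 13.3%, and 38.7% and 63.9% after miR-203 beside 19.8%. The shares higher after miR-130a were 43.5% and 47.2% beside 15.9%.

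Over the 12 total arrays the genes outside the list most like the mean profile of the 49 were KIF18B (Pearson r = 0.993), NCAPG (0.993), MCM2 (0.993), CDCA8 (0.992) and CENPU (0.991). These arrays share their 4 groups, so the values are a description. The members least like that profile were BUB3 (0.67), CENPA (0.74) and CDC25B (0.82).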

How the data were processed

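RNA of LNCaP cells was measured on 24 arrays, 3 in each of 8 groups. The authors deposited log2 values, 1 for each probe set. GCRMA, RMA and R 2.9.0 are named in the submitters' processing notes, and their order of use is not given in the sources used here. Precision is limited by the number of arrays. Of 22277 probe sets, 19064 had 1 gene symbol. Each gene took its probe set with the highest mean, and a gene was tested when its mean reached 2.85, the median over probe sets. A value within 0.05 of an array's lowest is called at the floor. Differences were fitted with lmFit and eBayes of limma 3.58.1 (R 4.3.3) on the 12 arrays of 1 kind of RNA, or on all 24 where both kinds entered. Calls were made at a Benjamini-Hochberg adjusted p under 0.05 over 6782 genes. The fits were tested on simulated data with independent arrays, which lack the deviations that AGO2-bound arrays of 1 number share. For contrasts with scramble, 1.5-fold changes were recovered at 58.2% to 77.6% in total RNA and 28.4% to 34.3% in AGO2-bound RNA. For the difference of changes it was 14.9% to 19.4%. The members, the lists and the named genes were chosen with earlier results of these data known. Any member may be named; array values are given for 13 anchor genes and for the 3 largest rises and falls without overlap in each comparison with scramble. In AGO2-bound RNA, same-numbered arrays of miR-130a or miR-203 and scramble correlated at over 0.1 in each of 3 pairs; this pairing comes from the data. Alternatives changed the filter, probe set, scaling, arrays in the fit, replicate block and each array in turn.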

Additional observations from a re-analysis of the deposited data

Results flagged for a closer look

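Results are given here where the change in AGO2-bound RNA differed from the change in total RNA, by limma's test of that difference. The number of genes was 11 after miR-205, 12 after miR-203 and 8 after miR-130a. Over all genes, 21.1% were higher and 21.7% lower after miR-205, and 22.1% and 27.0% after miR-203. After miR-130a they were 16.2% and 18.4%. None of the shares of the list was above these. After miR-130a the log2 differences of changes were 2.47 for CCNB1, 1.43 for CDK1, -1.44 for BUB1B, -2.27 for CCNB2 and -2.74 for KIF20A. The CDK1 call did not hold with every array left out in turn. After miR-203 the differences were 1.42 for SMC4, 1.38 for TPX2, 1.10 for BUB1, 0.66 for MKI67, -1.42 for DLGAP5, -2.08 for BUB1B and -2.51 for CCNB2. With every array left out in turn, SMC4, TPX2, BUB1B and CCNB2 held their calls there, and BUB1, MKI67 and DLGAP5 did not. After miR-205 the differences were 1.55 for BUB1, 1.49 for PLK1, 1.45 for MKI67, -1.64 for MAD2L1 and -2.39 for KIF20A. PLK1 and MKI67 were close to the floor in AGO2-bound RNA after every transfection, scramble included. CCNB2 and BUB1B carry negative values after both miR-130a and miR-203, comparisons that share their scramble arrays.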

How the results depend on the processing

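Counts of called genes are compared here with those reported (25, 28, 47, 13, 17, 27 and so on, over 49 genes). No call reversed under any alternative run. Quantile scaling, median centring and the mean of all probe sets kept each of the 16 counts within 1.5 times, with the difference of changes after miR-203 at the edge (8 of 12). Without the filter, the count in total RNA was 14 after miR-130a and 18 after miR-203, in AGO2-bound RNA 10 after miR-203 and 16 after miR-205, and for the difference of changes 5 after miR-130a and 4 after miR-203. More genes are tested then. With all 24 arrays in the fit total RNA gave 14 after miR-203 and 16 after miR-130a, and 22 for miR-203 against miR-205, and 26 in AGO2-bound RNA after miR-203. With the replicate block it was 30 in AGO2-bound RNA after miR-203 and 22 after miR-130a. For the difference of changes it was 20 and 24 after miR-130a and miR-205, where the block also covered total arrays. Same-numbered total arrays of miR-130a or miR-205 and scramble correlated at 0.05 at most. The AGO2-bound pairs of miR-205 and scramble did not all correlate (-0.04 for number 2), and the block gave 38 there. With AGO2-bound numbers 2 and 3 only, chosen after seeing the data, the counts were 27 after miR-203 and 20 after miR-130a, and 15 and 20 for the difference of changes after miR-130a and miR-205. The fit to the compared groups alone gave 13 for the difference of changes after miR-130a. Leaving out arrays gave 15 to 22 in total RNA after miR-130a, 19 to 30 after miR-203 and 45 to 47 after miR-205. In AGO2-bound RNA it gave 10 to 18 after miR-130a, 10 to 29 after miR-203 and 17 to 33 after miR-205. For the difference of changes it gave 5 to 12, 6 to 13 and 9 to 17 after miR-130a, miR-203 and miR-205. The lowest or highest of these came without AGO2 miR-130a replicate 2 (5), AGO2 scramble replicate 3 (12), total miR-203 replicate 1 (6) and AGO2 scramble replicate 1 (17). AGO2-bound against total RNA after miR-205 had 8 genes higher, 4 without AGO2 miR-205 replicate 1 and 5 without total miR-205 replicate 1. Median centring turned the difference of changes after miR-130a from 3 higher and 5 lower to 4 and 4. For named members, 1385 alternative values kept direction and call, 92 lost the call, 51 gained it and 41 without a call moved. The cause of these shifts was not tested. Signal near the floor limits what can be seen for PLK1, MKI67 and CENPA. Other members come near it too, such as KIF14, with means of 2.55 in AGO2-bound RNA after miR-203 and 2.76 in total RNA after miR-205. ASPM and CENPE were low as well, with means of 3.45 and 3.35 over the 24 arrays.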
